A study of Mus musculus with 4 samples.

Results

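Voltage-gated ion channels and their close relatives were followed by gene across the amygdala arrays of wild-type and P2X7 receptor (P2X7R) knockout mice. A gene was counted as a channel subunit by the prefix of its name in the array files. The prefixes were those of sodium (Scn), calcium (Cacna, Cacnb, Cacng), potassium (Kcn) and hyperpolarization-activated (Hcn) channel families. Kcn had to be followed by a, b, c, d, f, g, h, j, k, m, n, q, s, t or v, which leaves out Kcne and Kcnip genes. Each gene also needed 1 probe that the scanner software marked as well above background in 3 or more of the 4 arrays of some group. The array named 120 such genes, and 99 of them passed, out of 19463 genes that passed the same filter. The 99 genes were read by 154 probes, and each gene was represented by its brightest kept probe.

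The amygdala was taken whole from C57BL/6J males at 10 weeks of age. The mice were wild type or P2X7R knockout, and P2X7R, encoded by P2rx7, is an ion channel opened by extracellular ATP. Each genotype was injected intraperitoneally with saline or with LPS (lipopolysaccharide, from the outer membrane of bacteria), the latter at 7.5 µg per mouse or 250 µg/kg as the labels put it, and were killed 6 h later. The 4 groups were wild-type saline, wild-type LPS, knockout saline and knockout LPS, with 4 mice and 4 arrays each. Which mouse each array came from is not labelled. The p-values therefore reflect how far arrays within a group varied, which may be partly technical.

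Voltage-gated channels open a pore when the membrane potential changes. Sodium channels carry the upstroke of the action potential, calcium channels couple depolarization to transmitter release and transcription, and Kv potassium channels repolarize the neuron and set its firing pattern. Pore subunits assemble with auxiliary subunits that set their number at the membrane and their gating, and neurons of the amygdala combine many members of each family.

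All values come from oligonucleotide probes of 60 bases. The last 30 bases of the probes that the results turn on are printed here 5′ to 3′ in lower case, because the choice of probe decided several of the results. Positions of the whole probe are those of the array files, on mouse build mm9; whether a probe lies in coding sequence or in a UTR is not stated there, and the listed span of Cacng2 probe 2 is shorter than the probe. Capitals mark the start codon of Cacng2, which lies within its 5′-most probe. The first 5 lines belong to genes described under LPS in knockout, the next 3 lines are Cacng2 and the last 3 are Cacna2d1.
Kcns2 probe 1, chr15:34769949-34770008, plus strand: ccactgtgtacagtattctaatgctcatat
Kcns2 probe 2, chr15:34771247-34771306, plus strand: atacggagataaacaggcttttaatccaaa
Kcnb2, chr1:15703259-15703318, plus strand: ttaaggggggaaaaaatctaaattttgttc
Kcnc4, chr3:107241564-107241623, minus strand: tttgtccatttcttttcaaagatgctgctg
Kcna2, chr3:106908367-106908426, plus strand: atggagatacaggagggagttaacaacagc
Cacng2 probe 1, chr15:77949297-77949356, minus strand: gaattATGgggctgtttgatcgaggtgttc
Cacng2 probe 2, chr15:77824053-77824073, minus strand: tgaggaaaagggaaggagaaggaatggctg
Cacng2 probe 3, chr15:77823047-77823106, minus strand: cccagagtgaattaagggagcactcaggtt
Cacna2d1 probe 1, chr5:15835186-15835245, plus strand: gtttgctagtcatcggttataatactgctc
Cacna2d1 probe 2, chr5:15864758-15864817, plus strand: agacacctggttaatatatcactttatgca
Cacna2d1 probe 3, chr5:15876550-15876609, plus strand: gcgacacagaactttagctgggcctctacc

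The 75th percentile of intensity ranged from 581.3 to 1164.7 on wild-type arrays and from 345.9 to 614.0 on knockout arrays. Levels below are log2 intensity relative to that percentile of the same array, so a negative level lies under it. The wild-type arrays were on slides 1 and 2 and the knockout arrays on slides 3 and 4, scanned in separate sessions, so genotype, slide and scan session cannot be told apart. Wild-type saline arrays 1 and 2, on slide 1, stood apart from arrays 3 and 4 on slide 2. Leaving them out moved the number of genes called for LPS in wild type from 2 to 611 of 19463, so the main counts of called channel genes are given with and without them. Knockout saline array 1 also lay far from its group for several channel genes, in both directions. It read 0.44 for Hcn2 where the others read −1.05, −0.48 and −0.59. For Kcnc2 it read −0.07 where the others read 1.72, 1.24 and 1.54. Counts with single arrays left out are given in the closing section. The brighter of the probes for P2rx7 lay between −0.15 and 0.90 on wild-type arrays and between −1.69 and −0.80 on knockout arrays, with no overlap, whereas the dimmer probe overlapped; whether either lies in the deleted part is not given in the sources used here.

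The array detected most of the repertoire. Of the 99 genes, 90 were well above background on at least 3 arrays in all 4 groups and 82 on all 16 arrays. They comprised 36 genes of the Kv potassium families, 27 other potassium channel genes, 22 calcium channel genes, 10 sodium channel genes and the 4 genes of the HCN family. The other potassium genes include inward rectifiers (Kir), tandem-pore leak channels (K2P) and calcium- or sodium-activated channels, many of which are not gated by voltage, and the noncoding RNA Kcnq1ot1, which the name rule also takes in. Genes that passed in only 1 or 2 groups were Kcnn3, Kcnq3, Cacna2d4, Kcna3, Kcng4, Kcnh7 and Kcnh8. The 21 genes that did not pass included the sodium channels Scn7a, Scn9a and Scn11a, of which Scn9a and Scn11a are best known from peripheral sensory neurons, and Cacna1f, the calcium channel of photoreceptors. They were not well above background, which gives a bound and not an absence.

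In knockout mice 3 channel genes were lower after LPS than after saline and none was higher. Kcns2, a modifier subunit that forms no channel alone and assembles with Kv2 subunits, fell by 1.22 ± 0.21 (log2, SE of the limma model, n = 4 arrays per group, adjusted p = 0.00457), a 2.32-fold difference. Kcnb2, which encodes the Kv2.2 pore of delayed rectifier channels, fell by 1.18 ± 0.21 (adjusted p = 0.00472), or 2.27-fold. Kcnc4, which encodes the fast-inactivating Kv3.4 pore, fell by 0.72 ± 0.19 (adjusted p = 0.046), or 1.65-fold. These were 3.03% of the 99 genes, where 3.64% of all 19463 genes passed the same test, 2.50% higher and 1.14% lower. An unadjusted p under 0.05 was reached by 17 channel genes (17.2%), 13 of them lower, and by 14.5% of all genes. Without wild-type saline arrays 1 and 2, 18 reached it.

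The levels of Kcns2 were −2.40, −2.42, −2.58 and −3.01 on the knockout saline arrays and −3.74, −3.82, −4.01 and −3.71 on the knockout LPS arrays. They were −3.05, −2.46, −2.13 and −2.19 in wild-type saline and −2.55, −2.76, −2.24 and −2.82 in wild-type LPS. All knockout LPS arrays lay below every other array. The second kept probe of Kcns2, further downstream, did not show this: its knockout arrays read −5.08, −3.79, −3.54 and −3.88 after saline and −3.67, −4.14, −3.78 and −4.82 after LPS, which overlap, with a difference of −0.03. With the mean of both probes the Kcns2 value was −0.62 and missed the threshold (adjusted p = 0.095).

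Kcnb2 had 1 probe. Its levels were −2.30, −2.22, −2.59 and −2.61 in knockout saline and −4.0, −3.88, −3.59 and −2.98 in knockout LPS. They were −3.71, −4.10, −3.63 and −3.59 in wild-type saline and −3.74, −4.07, −3.85 and −3.92 in wild-type LPS. The knockout saline arrays thus stood above every other array, and the knockout LPS arrays overlapped the wild-type range. Kcnb2 differed by genotype after saline, by 1.33 (adjusted p = 0.00013), and by 0.28 after LPS, which did not pass.

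Kcnc4 levels were 1.47, 0.56, 0.77 and 0.71 in knockout saline and −0.02, 0.00, 0.40 and 0.22 in knockout LPS. The wild-type arrays read 1.25, 1.07, 1.25 and 1.54 after saline and 1.11, 1.09, 1.16 and 1.21 after LPS. The knockout groups did not overlap, but knockout saline array 1 lay well above the other arrays of its group. The call of Kcnc4 held in 8 of 28 alternatives, with adjusted p from 0.0297 to 0.959. Kcnb2 held in 27 of 28, missing only within slide 4 (−1.17, adjusted p = 0.864), and Kcns2 in 25 of 28. Within slide 3 the values were −1.08 for Kcns2, −1.19 for Kcnb2 and −0.55 for Kcnc4, and within slide 4 they were −1.36, −1.17 and −0.90. Of these only Kcnb2 within slide 3 was called. A different channel gene was called higher within slide 3.

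**Figure D1:**
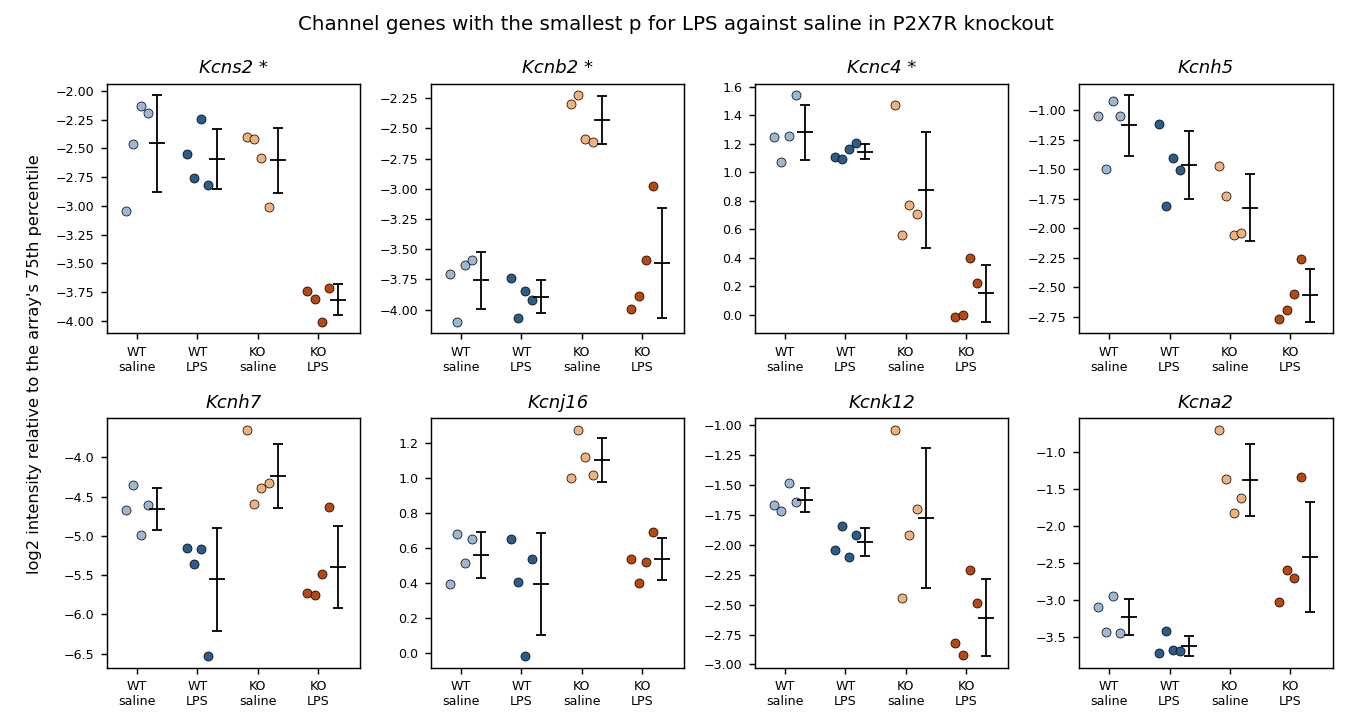
Level of 8 channel genes on each array (log2 intensity relative to the array's 75th percentile) in the 4 groups, with points for arrays and the black mark and bar for mean ± SD (n = 4); an asterisk marks genes that passed the test for LPS against saline in knockout. Knockout LPS arrays lie below all knockout saline arrays for Kcns2, Kcnb2, Kcnc4, Kcnh5, Kcnh7 and Kcnj16, while those of Kcnk12 and Kcna2 overlap.

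The genes next in order of p missed the threshold in the model reported here. Kcnh5, an ether-à-go-go (EAG) family pore, gave −0.74 ± 0.20 (adjusted p = 0.0517) and Kcnh7, of the ERG subgroup, −1.16 ± 0.32 (adjusted p = 0.0627). Kcnj16, an inward rectifier of glia and brainstem neurons, gave −0.57 ± 0.16 (adjusted p = 0.068). Its other kept probes read 0.07 and 0.07. Kcnk12, a two-pore subunit, gave −0.83 ± 0.24 (adjusted p = 0.076) and Kcna2, the Kv1.2 pore of axons, −1.04 ± 0.31 (adjusted p = 0.0886). Knockout LPS array 4 read −1.33 for Kcna2 where the other 3 read −3.03, −2.60 and −2.71. Without it, 5 channel genes passed: Kcns2, Kcnb2, Kcnh5, Kcnh7 and Kcna2, the last at −1.40 (adjusted p = 0.00753). Each knockout slide held both treatments, and with slide as a fixed block Kcnh5 (adjusted p = 0.0361), Kcnh7 (0.04) and Kcna2 (0.0263) passed as well. Kcnh7 was well above background on all 4 saline arrays but on only 1 of 4 LPS arrays in each genotype.

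By group of subunits, none of the 10 sodium channel genes passed for LPS in knockout, and their median difference was −0.03, with Scn1a at 0.23, Scn2a at 0.27 and Scn8a at −0.06, the main pores of central neurons. None of the 22 calcium channel genes passed (median −0.16), with Cacna1a, the P/Q-type pore, at −0.30 and Cacna1c, the L-type pore, at 0.12. The 36 Kv genes held all 3 calls, with 26 of 36 values below 0 and a median of −0.26. All 4 HCN genes, the pacemaker channels, had values below 0 (median −0.28), as had all 4 Kv7 genes (median −0.39), and none passed. Of 11 inward rectifiers, 8 had values below 0, among them Kcnj10, the astrocytic potassium buffer, at −0.51 (adjusted p = 0.201). Over all 99 genes 68 values were below 0 and the median was −0.19. Over all 19463 genes tested 11760 were below 0, and the median was −0.09. Most of these directions were also seen for LPS in wild type. There 25 of 36 Kv genes (median −0.13), all 4 Kv7 genes (median −0.54) and 8 of 11 inward rectifiers were below 0. Of the HCN genes 2 of 4 were.

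**Figure D2:**
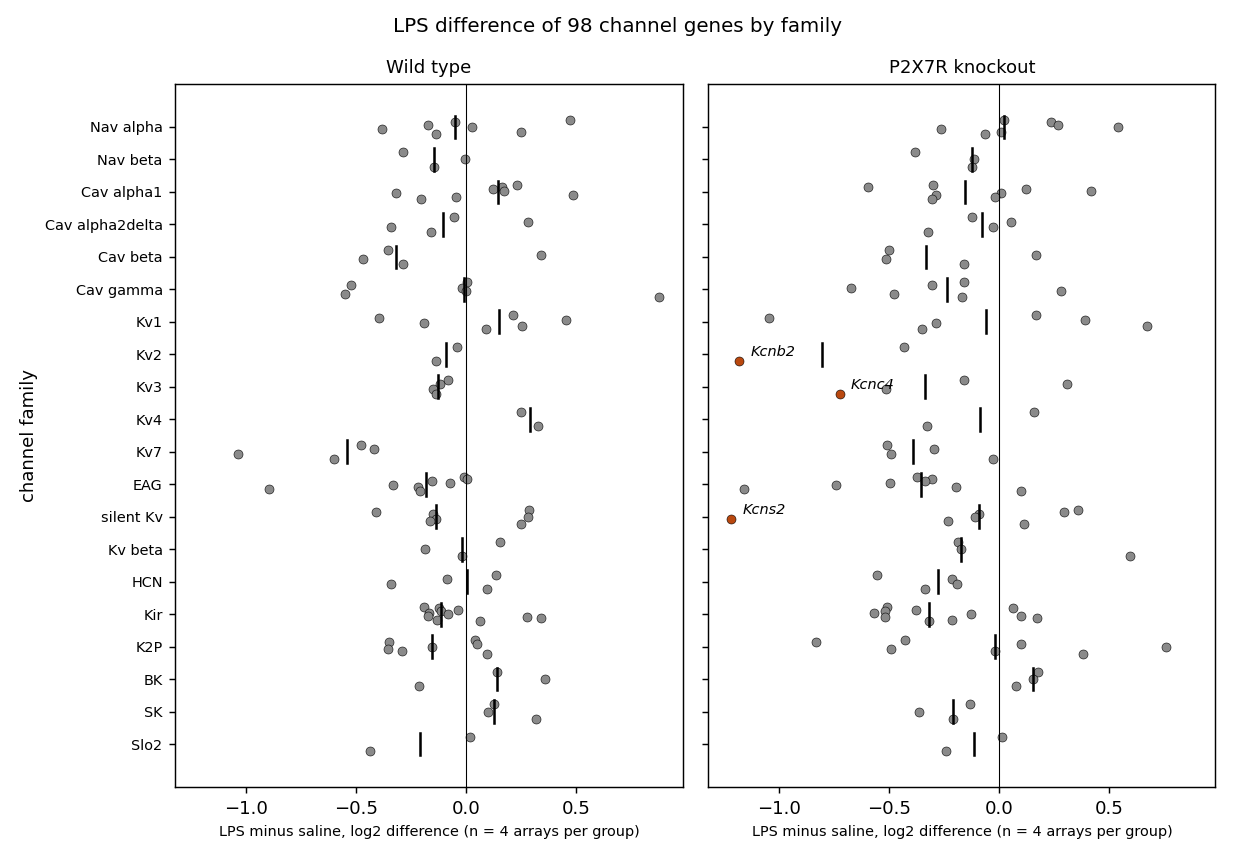
LPS minus saline (log2 difference, n = 4 arrays per group) for the channel genes by family, wild type on the left and knockout on the right, with 1 point per gene and a black line at the family's median; the noncoding Kcnq1ot1 is left out. Orange points passed the test: Kcnb2, Kcnc4 and Kcns2 in knockout and none in wild type.

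In wild type, no channel gene passed for LPS with limma, and 7 had an unadjusted p under 0.05 (3 higher, 4 lower), where 1285 of all 19463 genes had. Without wild-type saline arrays 1 and 2 there were 12. Over all genes 0.0103% passed. The smallest p belonged to Kcnh7 at −0.90 ± 0.32 (adjusted p = 0.643), followed by the auxiliary subunits Cacng3 at −0.52 and Cacng7 at −0.55, the sodium-activated potassium channel Kcnt2 at −0.44 and Scn10a at 0.47. The Kcnh7 value was −0.07 with normexp background correction and −0.57 without wild-type LPS array 4. Without wild-type saline arrays 1 and 2, Kcnq1 (−0.99, adjusted p = 0.029) and Scn4a (−1.12, adjusted p = 0.0334) passed in wild type, where 3.14% of all genes did. The same omission gave 4 calls in knockout, Kcnh5 added to the 3 above, where 4.90% of all genes passed. Groups of 4 arrays did not overlap for 14 channel genes in knockout (14.1%, against 11.3% of all genes) and for 5 in wild type (5.05%, against 4.79%).

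The difference between the LPS responses of the genotypes was tested as an interaction. No channel gene passed with limma, and 0.0360% of all genes did. At an unadjusted p under 0.05 there were 6 channel genes (6.06%, all genes 6.90%), all with a lower response in knockout, and 6 again without wild-type saline arrays 1 and 2. Kcns2 gave −1.08 ± 0.30 (adjusted p = 0.333, range over the alternatives 0.217 to 0.85) and Kcnb2 −1.04 ± 0.30 (adjusted p = 0.348, range 0.107 to 0.664). The others were Kcnd3, which encodes the Kv4.3 pore of A-type current, at −0.66, Kcnq1ot1 at −0.68, the T-type calcium pore Cacna1g at −0.77 and Kcnc4 at −0.59. The 3 calls made in knockout alone are thus not shown to differ from wild type.

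Some markers of other cells were called for LPS in knockout, where 3.64% of all genes were. Of 10 endothelial markers 3 fell, of 9 microglial markers 2 fell, of 6 oligodendrocyte precursor markers 1 fell, of 8 mural cell markers 1 fell and of 9 astrocyte markers 2 rose. The mean level of the microglial list was −0.33 to 0.36 in knockout saline and −1.28 to −0.91 in knockout LPS. In wild type it was −0.81 to 0.62 and −0.93 to −0.34. In knockout the list of striatum and central amygdala read −0.47 to −0.20 after saline and 0.03 to 0.29 after LPS, with no marker called. The endothelial, oligodendrocyte precursor, astrocyte, oligodendrocyte and mural lists did not overlap there either. The cortical, choroid plexus and GABA interneuron lists overlapped. None of 10 pan-neuronal markers passed, and their mean level was 4.42 to 4.61 after saline and 4.32 to 4.47 after LPS. The part of these shifts in the channel results was not tested. In whole tissue, fewer cells of a type and less RNA per cell cannot be told apart.

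Knockout and wild type differed at many channel genes. After saline 24 were higher and 18 lower in knockout, 42 of 99 or 42.4%, where 50.9% of all genes were called, 28.6% higher and 22.3% lower. After LPS 15 were higher and 19 lower, 34.3%, where 47.2% of all genes were called, 25.9% higher and 21.2% lower. Without wild-type saline arrays 1 and 2 the counts were 32 after saline and 33 after LPS, where 35.8% and 49.3% of all genes were called. Groups did not overlap for 39 channel genes after saline (39.4%, all genes 46.1%) and for 45 after LPS (45.5%, all genes 51.9%).

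In both comparisons together 24 genes were called in the same direction, 13 higher and 11 lower in knockout, and none in opposite directions. In the single comparisons 50.9% and 47.2% of all genes were called, and the share of all genes called in both is not given here. The count of 24 became 23 without wild-type saline arrays 1 and 2 and 31 without knockout saline array 1. It was 19 with the filter of all 16 arrays and 32 with correction for probe GC content. Of the 24, 9 were called in that direction in every fit tried, the reported one and 26 alternatives for each comparison (25 for Kcnh6 and Kcnk2, which did not pass the strictest filter). The 8 described here were Kcna2, Kcna6, Kcnh6 and Kcnq1, which were higher, and Kcnk2, Kcns3, Kcnd2 and Kcnk13, which were lower. Of the 9, only Kcnd2 had a second kept probe, so averaging of kept probes could change no other of them. Many of the other alternatives could not move the difference itself. Another filter, a block or the omission of an array of the other treatment changed only the estimated spread or the adjustment. Calls in every fit are therefore not that many separate checks. Because genotype, slide and scan session cannot be told apart, these are differences between the groups of arrays.

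**Figure D3:**
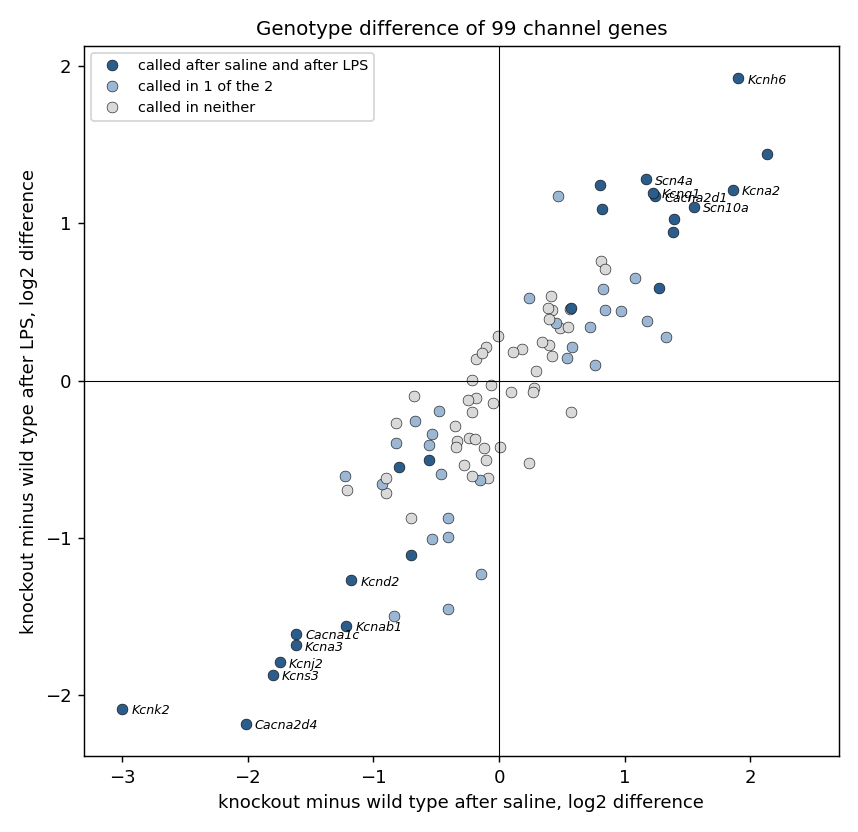
Knockout minus wild type (log2 difference, n = 4 arrays per group) for the 99 channel genes, after saline on the horizontal axis and after LPS on the vertical axis, coloured by how many of both comparisons called the gene. The 24 dark points, called in both, lie in the upper right (13) and lower left (11) quadrants and none lies elsewhere; Kcnk2 has the lowest value after saline.

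Kcnk2, which encodes the leak channel TREK-1, had the largest difference of the 99 genes after saline, −3.0 ± 0.37 (adjusted p = 1.83e-05), and −2.08 ± 0.37 after LPS (adjusted p = 0.000383). With normexp background correction it was −0.66 (adjusted p = 0.0451) and −1.05 (adjusted p = 0.00684). Its levels were −0.92, −1.02, −1.20 and −1.14 in wild-type saline and −1.27, −1.25, −1.13 and −1.24 in wild-type LPS. They were −5.34, −4.11, −3.29 and −3.54 in knockout saline and −2.72, −3.02, −3.23 and −4.26 in knockout LPS. Wild-type arrays clustered tightly, while knockout arrays were widely spread and never reached the wild-type range. Kcnk13, another two-pore channel, known from microglia, was lower by a smaller step, with values of −0.56 ± 0.14 after saline and −0.51 ± 0.14 after LPS. Its knockout arrays lay between −0.66 and −0.28 and its wild-type arrays between −0.06 and 0.25. Of the 7 two-pore genes, 3 were lower and 1 higher after saline, and 5 lower and 1 higher after LPS. The shares called were 57.1% and 85.7%, beside 50.9% and 47.2% of all genes. Of all genes, 22.3% and 21.2% were lower. The higher gene was Kcnk4, which encodes TRAAK. Under other scalings 3 to 5 were lower in each comparison, and the higher call was lost after saline with median scaling, normexp or GC correction and after LPS with normexp. Without wild-type saline arrays 1 and 2, 2 were lower and none higher after saline, and 3 lower and 1 higher after LPS. The Kcnk4 call after saline was lost in 13 alternatives (adjusted p from 0.0507 to 0.212), among them those that left out knockout saline array 1 or 4, knockout LPS array 1 or 2, or wild-type saline array 1, 2 or 4.

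Hcn2, a pacemaker channel subunit of the forebrain, gave −0.24 and −0.36 and passed in neither comparison.

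Of the Kv1 family, which sets the threshold for firing in axons, Kcna2 and Kcna6 were higher in knockout. Kcna2 read −3.10, −3.44, −2.95 and −3.45 in wild-type saline and −0.69, −1.36, −1.82 and −1.63 in knockout saline, a difference of 1.86 ± 0.31 (adjusted p = 0.000218). After LPS the difference was 1.22 ± 0.31 (adjusted p = 0.00512), and 0.74 with normexp. Kcna6 lay between 4.30 and 4.83 on wild-type arrays and between 5.42 and 6.56 on knockout arrays, without overlap. It differed by 1.38 ± 0.20 after saline and by 0.94 ± 0.20 after LPS. With quantile normalization these values were 0.88 and 0.62. Kcna1, the Kv1.1 pore, gave −0.34 and −0.38, which did not pass. Kcna3, the Kv1.3 pore known from lymphocytes and microglia, was lower, by −1.62 and −1.68, but was not well above background in knockout saline, which gives at least a 1.43-fold difference there. Its direction after saline turned to 1.17 with normexp background correction. After LPS it was well above background on 1 of 4 knockout arrays, and its call there was lost with normexp (−0.08, adjusted p = 0.88).

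Kcnd2, the Kv4.2 pore of the dendritic A-type current, was lower in knockout by −1.18 ± 0.31 after saline (adjusted p = 0.00541) and −1.27 ± 0.31 after LPS (adjusted p = 0.00365). It read 2.57, 2.84, 3.33 and 3.71 in wild-type saline and 0.96, 2.38, 2.21 and 2.20 in knockout saline. Knockout saline array 1 lay far below the other 3. The second probe of Kcnd2 gave −0.27 and −0.51, the same sign without a call, and with the mean of kept probes Kcnd2 was at −0.72 after saline. Kcnd3 went the other way, 0.76 higher after saline with a call, and 0.10 after LPS without one.

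Kcns3, a silent Kv subunit found in parvalbumin interneurons, read −0.82, −0.40, −0.25 and −0.11 in wild-type saline and −2.48, −1.99, −2.0 and −2.31 in knockout saline. The difference was −1.80 ± 0.21 (adjusted p = 1.23e-05), and −1.87 ± 0.21 after LPS (adjusted p = 9.46e-06). Wild-type arrays all lay above all knockout arrays. With normexp the value after saline was −0.74 (adjusted p = 0.0127). Kcnab1, an auxiliary beta subunit of Kv1 channels, was lower by −1.21 ± 0.28 and −1.56 ± 0.28. Its other kept probe gave 1.03 and −0.18, neither called, and with the mean of kept probes both calls were lost (−0.09, adjusted p = 0.899, and −0.87, adjusted p = 0.189). Kcnab2 gave −0.21 and −0.20 and did not pass.

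Kcnh6, of the ERG subgroup, was higher by 1.90 ± 0.24 after saline (adjusted p = 2.06e-05) and 1.92 ± 0.24 after LPS (adjusted p = 1.98e-05). Its wild-type arrays lay between −5.94 and −4.74 and its knockout arrays between −3.80 and −3.17. Kcnh6 was well above background on all knockout arrays but on only 3 of 4 wild-type saline and 2 of 4 wild-type LPS arrays. The size of its difference thus rests partly on wild-type values near background. With normexp its value after LPS was 0.82 (adjusted p = 0.023). Kcnq1, the Kv7.1 pore best known from heart and inner ear, was higher by 1.22 ± 0.26 (adjusted p = 0.00118) and 1.19 ± 0.26 (adjusted p = 0.00151). Its levels in wild-type saline split by slide, −4.44 and −4.21 on slide 1 and −3.23 and −3.37 on slide 2, all below the knockout saline values of −2.15, −2.72, −2.68 and −2.82. Without the slide 1 arrays its difference after saline was 0.71 (adjusted p = 0.0264), and with normexp it was 0.79 after LPS.

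**Figure D4:**
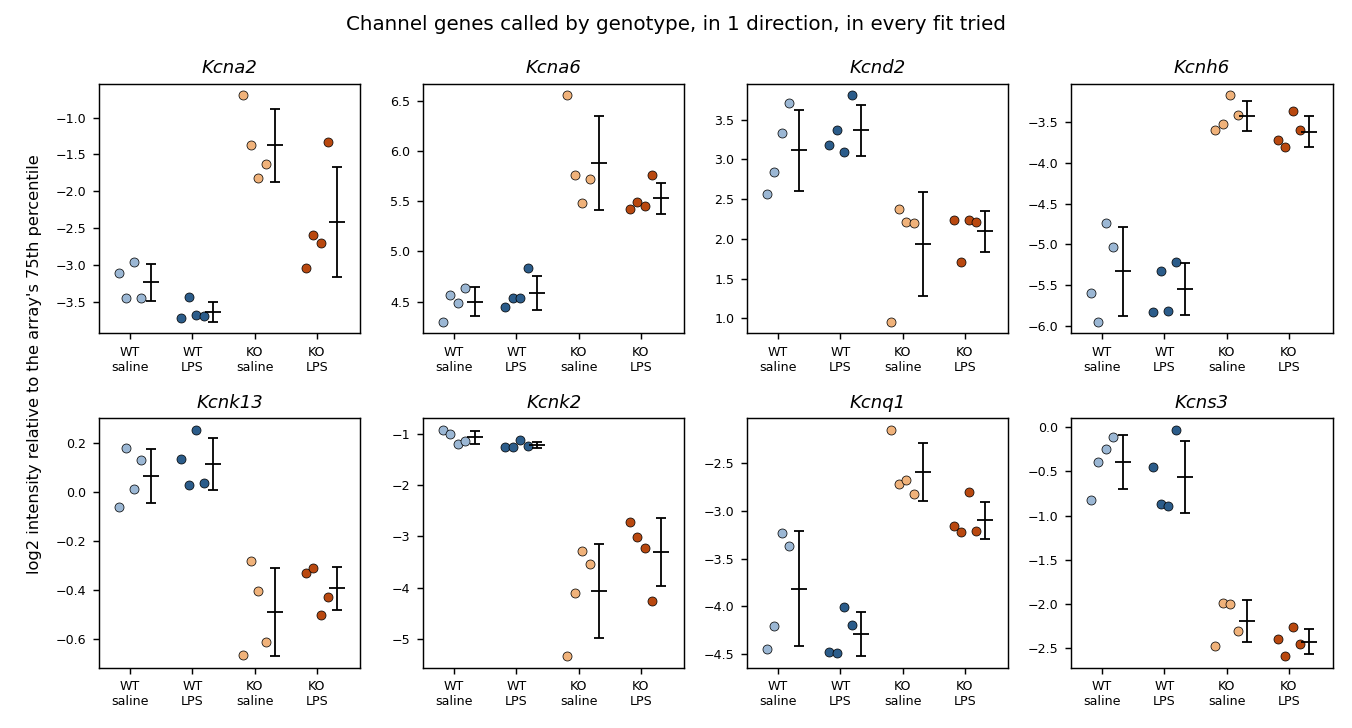
Level of 8 channel genes called by genotype in 1 direction in every fit tried (log2 intensity relative to the array's 75th percentile), with points for arrays and the black mark and bar for mean ± SD (n = 4). Knockout arrays lie above all wild-type arrays of the same treatment for Kcna2, Kcna6, Kcnh6 and Kcnq1 and below them for Kcnd2, Kcnk13, Kcnk2 and Kcns3.

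Sodium channel genes that passed were higher in knockout, 5 of 10 after saline and 4 of 10 after LPS, beside 50.9% and 47.2% of all genes called in either direction. Without wild-type saline arrays 1 and 2 these were 3 and 4. Of 7 pore genes, 4 were higher and none lower after saline, and 3 were higher after LPS; with normexp background correction 1 was also lower after saline. Scn2a, a main pore of excitatory axons, was higher by 0.80 ± 0.22 (adjusted p = 0.00699) and 1.25 ± 0.22 (adjusted p = 0.000347). Scn4a and Scn10a, best known from muscle and from sensory neurons, were higher by 1.17 and 1.55 after saline. The wild-type saline arrays of Scn4a split by slide, −3.71 and −3.63 on slide 1 and −1.90 and −2.47 on slide 2. Its call after saline was lost without the slide 1 arrays (0.42, adjusted p = 0.229) and with GC correction (0.69, adjusted p = 0.0532). Those of Scn10a were lost with the mean of kept probes (0.29 after saline, adjusted p = 0.363, and 0.13 after LPS, adjusted p = 0.7). Scn1a, the main pore of fast-spiking interneurons, gave −0.90 (adjusted p = 0.0846) and Scn8a 0.11, and neither passed. Knockout saline array 1 read −1.45 for Scn1a where the others read 0.68, 0.84 and 1.09, and without it the difference was −0.32. Scn2b, an auxiliary subunit, was higher by 0.57 and 0.47, a call lost after saline with quantile normalization, without the slide 1 arrays and with normexp, which turned it to −0.09. After LPS its call was lost in 11 alternatives, with adjusted p from 0.0537 to 0.333.

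Of 22 calcium channel genes, 1 was higher and 3 lower after saline (18.2% called, all genes 50.9%), and 2 were higher and 5 lower after LPS (31.8%, all genes 47.2%). After saline these became 6 higher and 3 lower with normexp, 4 and 6 with GC correction, 4 and 3 with quantile normalization, and 2 and 4 without wild-type saline arrays 1 and 2. After LPS normexp left 2 higher and 2 lower. Cacna1c and Cacna1d, the L-type pores of neurons, were both lower. Cacna1c gave −1.61 ± 0.20 in each comparison (adjusted p = 2.02e-05 and 2.15e-05), and its other probe −0.69 and 0.39, neither called. With the mean of kept probes its value after LPS missed the threshold (−0.61, adjusted p = 0.0646). Cacna1d gave −0.80 ± 0.15 (adjusted p = 0.00045) and −0.55 ± 0.15 (adjusted p = 0.00644), and with GC correction −0.52 and −0.33, the call after LPS being lost (adjusted p = 0.0956). Cacna1a gave −0.09 and −0.62, Cacna1e, the R-type pore, −0.19 and 0.14, and Cacna1g 0.57 and −0.20, and none of these passed. No beta subunit gene passed in either comparison, but 1 was higher in both with normexp and with GC correction, and after saline with quantile normalization. Cacng8 and Cacng4, which encode auxiliary subunits of AMPA receptors, were lower after LPS, by −1.45 and −1.49, and both calls were lost with normexp (−0.39, adjusted p = 0.391, and −0.28, adjusted p = 0.515). Without knockout LPS array 4 the Cacng4 value was −0.91.

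Some lower values rest on few measured arrays. Cacna2d4 was lower by −2.02 and −2.18, but was well above background on 1 of 4 arrays in each knockout group. With normexp it turned to 0.46 after saline, and after LPS the call was lost (−0.39, adjusted p = 0.446). Kcnj2, an inward rectifier, was lower by −1.74 and −1.79 and was well above background on 1 of 4 knockout LPS arrays. With normexp it turned to 0.56 after saline and lost the call after LPS (−0.44, adjusted p = 0.277), and without knockout saline array 1 it was −1.10 after saline.

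Different probes of 1 gene often gave different genotype results. Of the 40 channel genes with at least 2 kept probes, the genotype difference had the same sign for all probes in 17 (42.5%) after saline and in 18 (45.0%) after LPS. Over all 6330 genes with several kept probes the share was 49.2% in both comparisons. Probes of 1 gene were called in opposite directions for 8 channel genes after saline: Kcnt2, Cacng2, Kcnq1ot1, Kcnh1, Scn10a, Hcn3, Cacna2d1 and Kcnc2. After LPS this held for Cacng2, Kcnq1ot1 and Cacna2d1. Over all genes with several kept probes it held for 923 of 6330 after saline and for 857 of 6330 after LPS. All probes were called in 1 direction for 2 of the 40 channel genes in each comparison. Over all 6330 genes this was so for 965 after saline and 784 after LPS.

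Cacng2, which encodes stargazin, shows the pattern most plainly. Probe 1, over the start codon, read −2.41, −2.44, −1.96 and −1.90 in wild-type saline and −5.71, −4.73, −3.93 and −4.40 in knockout saline, a difference of −2.51. Probe 2, toward the 3′ end of the gene, read −1.96, −2.25, −1.75 and −1.98 in wild-type saline and −0.43, −0.34, −0.39 and −0.15 in knockout saline, a difference of 1.66. Neither pair of groups overlapped, and the directions were opposite. Probe 3, the brightest, gave 0.39 and was not called.

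Cacna2d1, the alpha2delta subunit that binds gabapentin, gave 1.24 after saline from probe 3, its brightest, −0.69 from probe 2 and −2.17 from probe 1. Probes 3 and 1 were called in opposite directions after saline and after LPS. With the mean of kept probes its difference turned to −0.54 after saline and −0.65 after LPS. Cacna1d was the L-type pore whose 3 probes were all called lower after saline, −1.06, −0.80 and −0.71. For Scn2a, 2 of 3 probes were called higher in both comparisons.

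Of the 24 genes called in both comparisons, 9 had another kept probe. For 7 of these, another probe had the opposite sign in at least 1 of the comparisons, and for 3 another probe was called in the opposite direction. Position along the gene was read from the mm9 coordinates. The most 3′ probe gave the higher genotype difference in 21 of 40 channel genes after saline (52.5%) and in 23 after LPS (57.5%), where the shares over 6240 genes were 50.8% and 52.1%. Across the 99 genes the genotype difference correlated with the GC content of the probe at r = 0.20 after saline and 0.17 after LPS, as a description over genes that share arrays. The part of probe position and GC content in the opposite calls was not tested.

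**Figure D5:**
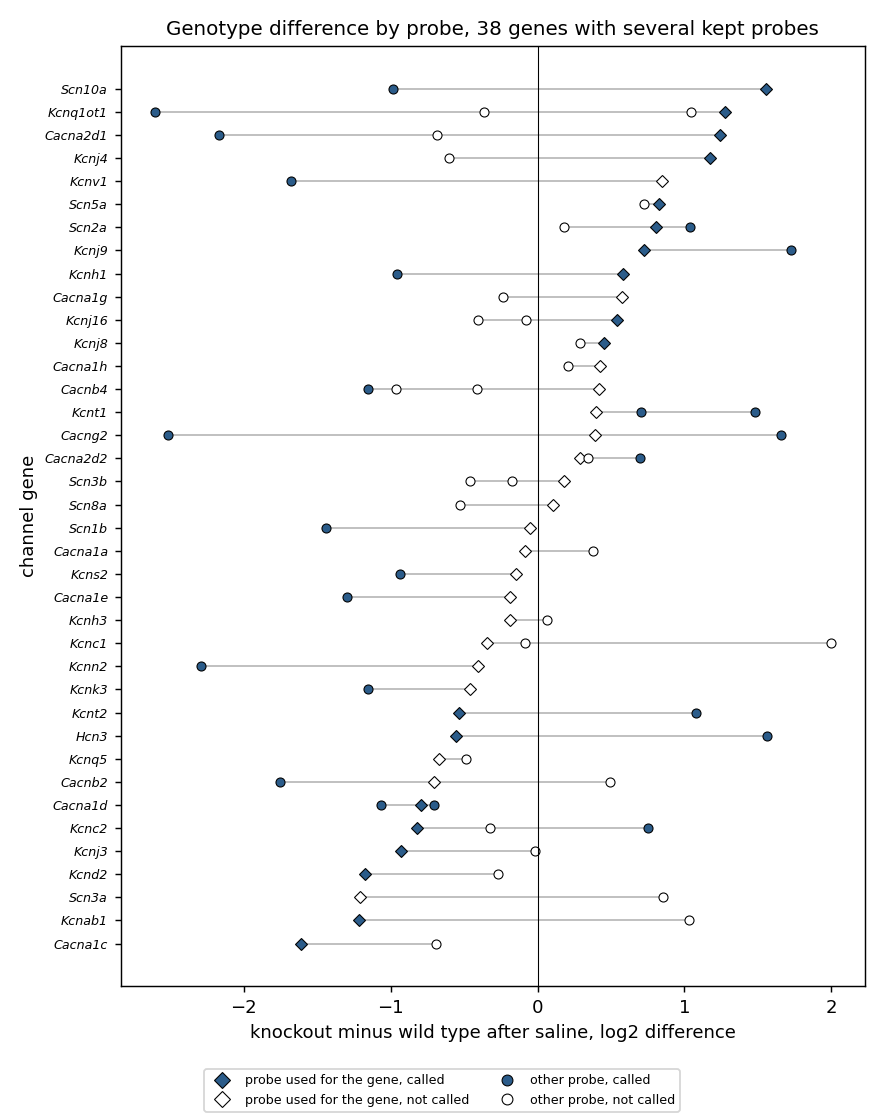
Knockout minus wild type after saline (log2 difference) for every kept probe of 38 channel genes with several probes, 1 gene per row ordered by the probe used for the gene (diamond), with other probes as circles, filled where the probe was called. Grey lines join the probes of a gene and cross 0 in 21 of the 38 rows; those of Cacng2 and Kcnq1ot1 are among the longest.

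Proteins that bind these channels were taken from a list of 39 genes that are no members, of which 37 were measured. None passed for LPS in either genotype with limma, with 2 and 0 at an unadjusted p under 0.05. Between genotypes, 6 were higher and 12 lower after saline (48.6% called, all genes 50.9%), and 6 higher and 8 lower after LPS (37.8%, all genes 47.2%). Kcnip2, a calcium-binding subunit of Kv4 channels, was lower by −2.57 ± 0.32 (adjusted p = 1.72e-05) and −2.21 ± 0.32, and Kcnip1 and Kcnip4 of the same family were lower by −1.01 and −0.87 after saline. Dpp6, another Kv4 partner, was lower by −0.57 after saline and −0.69 after LPS. The remaining Kv4 partners on the list are not described here. Ank3, the ankyrin that anchors sodium channels at the axon initial segment, was higher by 0.78 and 0.88.

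Some markers of neighbouring regions and of other cells were called by genotype, where 50.9% of all genes were called after saline and 47.2% after LPS. Of 10 markers of striatum and central amygdala, 7 were lower and none higher in knockout after saline, with a mean level of 0.72 to 1.42 in wild type and −0.47 to −0.20 in knockout. Of 10 oligodendrocyte markers 6 were lower, of 8 choroid plexus markers 2 were lower, of 10 cortical, hippocampal and basolateral markers 6 were lower, of 8 GABA interneuron markers 2 were higher and 4 lower, and of 10 pan-neuronal markers 4 were higher and 1 lower. Of 9 astrocyte markers 5 were higher and 2 lower after saline, and 5 higher and 1 lower after LPS. For the other lists after LPS, 4 striatum and central amygdala markers and 3 cortical, hippocampal and basolateral markers were lower. Of oligodendrocyte markers 1 was higher and 7 lower, and of choroid plexus markers 4 were lower. Of GABA interneuron markers 2 were higher and 4 lower, and of pan-neuronal markers 5 were higher and 1 lower. The part of these markers in the channel differences was not tested. In the authors' deposited table, 91 of the 99 probes used here are listed, and the group means there gave the same sign for 91 genes for LPS in either genotype and for genotype after LPS, and for 90 for genotype after saline. Those means come from the same arrays and probes, so the shared signs check the processing and are no independent evidence of the differences.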

How the data were processed

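RNA of 16 amygdala samples was measured on 1-colour Agilent arrays. Linear spot intensity was deposited for every array, background-subtracted with spatial detrending per the file headers; the submitters' processing notes name Agilent Feature Extraction 9.5. The authors also deposited log2 group means and a list with fold ratios of those means. These served only to compare signs and sizes, and 32 of their per-array columns were not used. Control and outlier spots were left out. Log2 intensity was set relative to each array's 75th percentile. Probes well above background on at least 3 of 4 arrays of a group were kept (28347), and the brightest stood for each gene. limma 3.58.1 (R 4.3.3, statmod 1.5.0) was fitted to 4 group means over 19463 genes, after a test on simulated data, with Benjamini-Hochberg adjustment and calls at 0.05. Probes were named through RefSeq accessions or the name in the file. For a gene below that mark throughout a group, a bound was computed from the lowest signal well above background. The members and lists were chosen with earlier results of these data known. Named genes were all those called for LPS, then the smallest p up to 8 (5 in wild type), and the 8 higher and 8 lower with the largest difference in both genotype comparisons; main pore subunits were added by role, and other genes were chosen after their values were seen. Same-numbered arrays did not deviate together, with correlations from −0.381 to 0.336. Alternatives are given in the closing section. The number of arrays limits the precision. A few genes are not reported by name here, and counts of calls include them.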

Additional observations from a re-analysis of the deposited data

Results flagged for a closer look

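Dixon's test of the array farthest from its group was applied to 29 named genes in 4 groups each, 116 in all, and marked 8, where chance marks about 1 in 20. In wild-type LPS, array 4 was lowest for Kcnh7 (−6.54), array 2 highest for Kcna2 (−3.43) and array 3 highest for Kcnt2 (−1.85). In knockout LPS, array 3 was highest for Kcnq1 (−2.80) and Cacna2d1 (3.23), and array 2 lowest for Kcnd2 (1.71). In wild-type saline, array 2 was lowest for Kcnab1 (2.56). In knockout saline, array 1 was lowest for Kcnd2 (0.96).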

How the results depend on the processing

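The count of 3 channel genes called for LPS in knockout became 6 with slide as a fixed block (Kcnh5, Kcnh7 and Kcna2 added) and 0 within slide 4, and 2 to 5 when single arrays were left out. Within slide 3 Kcnb2, Kcna2 and Kcnh7 were called lower and another channel gene higher (0.95, adjusted p = 0.0332), while Kcns2 and Kcnc4 were not called. The count of 0 for LPS in wild type became 2 without the wild-type saline arrays of slide 1 and stayed at 0 when single arrays were left out. When single arrays were left out, the genotype counts were 37 to 46 after saline and 29 to 50 after LPS, the highest without knockout saline array 1, and the interaction stayed at 0. The share of all genes called is not given here for alternatives other than the omission of the slide 1 arrays. Under that omission it went from 50.9% to 35.8% for genotype after saline. Changes in the channel counts are therefore not shown to be particular to channel genes. Same-numbered arrays share only a number: with the replicate number as a block the counts were 2 and 0 for LPS in knockout and wild type, 40 and 31 for genotype, and 0 for the interaction. Normexp background correction gave 37 higher and 17 lower after saline (24 and 18 in the setting reported), and moved the median of all genes from 0.07 to 0.44 there, from −0.09 to −0.22 for LPS in knockout and from −0.03 to −0.21 for the interaction; correction for probe GC content gave 16 higher and 28 lower after LPS (15 and 19), and 22 and 24 after saline. Directions that turned were Cacna2d4 (0.46), Kcna3 (1.17) and Kcnj2 (0.56) for genotype after saline with normexp, and Cacna2d1 for genotype (−0.54 and −0.65) and Kcnt2 for LPS in wild type (0.052) with the mean of kept probes. Apart from the averaging of probes that disagree, the cause was not tested. Kcna3 and Kcnq3 after saline have only bounds, and Kcna3 after LPS, Cacna2d4, Kcnj2 and Kcnh7 were measured on few arrays of a group. Kcnh6 was well above background on 2 of 4 wild-type LPS arrays.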
